A study of Mus musculus with 9 samples.

Results

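Tbx2, Tbx3, Tbx4 and Tbx5 are 4 of the 19348 gene rows of a count table from sorted mouse lung cells. They were taken by name as the members of a pair of linked T-box gene clusters, Tbx2 with Tbx4 and Tbx3 with Tbx5. Earlier results of these data were known when they were chosen. All 4 were among the 15550 genes that passed the filter on low counts (a minimum count of 10). RNA was sequenced from 9 libraries of C57BL/6J mice whose genotype is given as Col1_GFP;Foxf1_tdTomato, so every library came from animals with both reporters, a green one for type I collagen and a red one for Foxf1, a forkhead transcription factor of lung mesenchyme and endothelium. DBL cells were sorted as positive for both reporters (replicates 1, 3 and 4), ColGFP cells as positive for the collagen reporter but not the Foxf1 reporter, and TDonly cells as positive for the Foxf1 reporter but not the collagen reporter (replicates 1, 2 and 3 of each). No age, sex or sort gate was stated in the labels used here. Nothing in the labels says that replicates were separate animals, so p-values measure the spread between these libraries, which may be technical.

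T-box proteins are transcription factors that bind DNA through a conserved domain, the T-box. Tbx2 and Tbx3 act mainly as repressors and Tbx4 and Tbx5 mainly as activators, and in the mouse each pair of neighbours on a chromosome holds a repressor and an activator. In the embryonic lung all 4 genes are known from the mesenchyme. There Tbx4 and Tbx5 act upstream of Fgf10 in bud formation and branching, while Tbx2 and Tbx3 keep the mesenchyme proliferating.

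In mm10, Tbx2 (ENSMUSG00000000093.6) lies on chromosome 11 from 85832551 to 85841948, and Tbx4 (ENSMUSG00000000094.12) from 85886422 to 85916097, with 44.5 kb between them. Tbx3 (ENSMUSG00000018604.18) lies on chromosome 5 from 119670669 to 119684724, and Tbx5 (ENSMUSG00000018263.11) from 119832668 to 119885219, with 147.9 kb between them. All 4 are on the plus strand. Because members of a family can share reads, their GENCODE M21 coding sequences were compared. A stretch of 90 coding bases from the T-box region of Tbx2, Tbx3 and Tbx5, spliced across 1 intron, is shown 5′ to 3′ as the part where these 3 genes are most alike; capitals mark the 66 bases that are identical in all 3.
Tbx2: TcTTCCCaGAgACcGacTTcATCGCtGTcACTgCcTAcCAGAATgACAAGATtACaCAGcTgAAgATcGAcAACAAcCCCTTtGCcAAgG
Tbx3: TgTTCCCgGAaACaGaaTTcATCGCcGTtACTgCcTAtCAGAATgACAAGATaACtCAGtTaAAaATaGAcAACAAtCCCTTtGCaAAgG
Tbx5: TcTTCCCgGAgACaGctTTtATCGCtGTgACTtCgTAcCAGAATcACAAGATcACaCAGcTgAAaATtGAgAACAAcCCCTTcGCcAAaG
The windows run from chr11:85835892-85837092 in Tbx2 (exons 3 and 4), chr5:119675655-119677540 in Tbx3 (exons 4 and 5) and chr5:119845068-119853568 in Tbx5 (exons 6 and 7). Between windows, 69 to 75 of the 90 bases matched. Over the whole aligned coding sequence, identity was 63.4% for Tbx2 with Tbx3 and 63.7% for Tbx4 with Tbx5, and 47.7 to 52.3% for the other pairings, so the closest relatives lie on different chromosomes. The longest exact stretch shared by any pair of transcripts was 23 bases, between Tbx4 and Tbx5, and no pair shared a stretch of 25. The antisense transcript Tbx3os1 overlaps the start of Tbx3 and had no row in the table; no source used here states the strand setting of the counting, so its reads cannot be told apart from those of Tbx3.

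Library totals were 17820969 to 26147475 counts, and single-library counts of the 4 genes ran from 206 (Tbx5 in TDonly) to 15541 (Tbx3 in TDonly). Levels are given in CPM after TMM scaling of the libraries, as mean ± SD with n = 3 per population. The sort genes followed the labels: Col1a1 measured 9539 to 13224 CPM in DBL, 4939 to 9593 in ColGFP and 373 to 1566 in TDonly, and Foxf1 (Foxf1a in the table) was 87.3 to 113, 54.5 to 62.5 and 229 to 279 CPM. Replicate 1 was the lowest of each population for Col1a1. Replicate 1 of each population carries a sequencing core number of a lower series than the other 6 libraries, which no label calls a batch. In pooled cells, a lower level can be fewer cells that express a gene or less RNA per cell, and these cannot be told apart.

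The 4 genes took 3 different orders across the populations. Tbx2 was high in ColGFP and lower by a like amount in both populations with the Foxf1 reporter; Tbx3 was highest in TDonly, intermediate in DBL and lowest in ColGFP; Tbx4 and Tbx5 ran the opposite way, highest in ColGFP and lowest in TDonly. Against ColGFP, DBL was higher in 1 member (Tbx3) and lower in 3 by edgeR's quasi-likelihood test at an adjusted p under 0.05, where 14.5% of all 15550 genes tested were called, 8.04% higher and 6.47% lower. Against TDonly, DBL was higher in 2 members (Tbx4 and Tbx5) and lower in 1 (Tbx3), where 29.9% of genes were called, 17.3% higher and 12.6% lower. Between the single-reporter populations all 4 were called, Tbx3 higher in TDonly and the other 3 lower, where 45.5% of genes were called, 21.6% higher and 24.0% lower. Libraries did not overlap for 3 members lower and 1 higher in DBL than in ColGFP (16.4% and 16.9% of all genes), for 2 higher and 1 lower in DBL than in TDonly (23.8% and 23.2%) and for 1 higher and 3 lower in TDonly than in ColGFP (27.3% and 28.8%). With library totals in place of TMM factors, the genes called there were 4363 higher and 2998 lower in place of 3355 and 3727, and no member changed direction or call. Falling in all 3 comparisons in the order TDonly, DBL, ColGFP, as Tbx3 did, was seen in 5.22% of genes, and the reverse order, as in Tbx4 and Tbx5, in 3.52%.

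Tbx2 measured 563, 545 and 526 CPM in ColGFP replicates 1, 2 and 3, 186, 185 and 217 CPM in DBL replicates 1, 3 and 4, and 204, 217 and 206 CPM in TDonly. Every ColGFP library stood above every other library, and the DBL and TDonly libraries overlapped. The means were 545 ± 18.8, 196 ± 18.3 and 209 ± 7.20 CPM. DBL was lower than ColGFP (log2 fold change -1.47 ± 0.10, standard error; adjusted p = 2.16e-05 by edgeR) and so was TDonly (-1.38 ± 0.10; adjusted p = 4.24e-06). DBL against TDonly did not pass the test (-0.09 ± 0.10; adjusted p = 0.514), and the 95% interval of that difference was -0.31 to 0.13.

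Tbx3, the paralog of Tbx2 on chromosome 5, measured 606, 613 and 581 CPM in TDonly, 228, 227 and 241 CPM in DBL and 133, 123 and 131 CPM in ColGFP. No libraries of different populations overlapped, and the spread within each population was small beside the steps between them. The means were 599.7 ± 16.8, 232 ± 8.03 and 129 ± 5.02 CPM. Tbx3 was higher in DBL than in ColGFP (log2 fold change 0.85 ± 0.08; adjusted p = 0.000176 by edgeR), lower in DBL than in TDonly (-1.37 ± 0.09; adjusted p = 5.34e-05) and 4.66-fold higher in TDonly than in ColGFP (2.22 ± 0.09; adjusted p = 2.37e-07). Markers of endothelium ran in the same order. The summed level of 17 such markers (Pecam1, Cdh5 and others) was 15653 to 17220 CPM in TDonly, 5375 to 6780 in DBL and 1098 to 1613 in ColGFP, with none at 0. The mean sums of epithelium markers, given below, had this order too. The part of either list in the Tbx3 result was not tested.

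Tbx4 measured 401, 295 and 321 CPM in ColGFP, 88.2, 87.8 and 92.8 CPM in DBL and 11.7, 35.2 and 32.2 CPM in TDonly. The populations did not overlap; replicate 1 was the highest of ColGFP and the lowest of TDonly. Mean levels were 339 ± 55.4, 89.6 ± 2.76 and 26.3 ± 12.8 CPM. Tbx4 was lower in DBL than in ColGFP (log2 fold change -1.92 ± 0.33; adjusted p = 0.00431 by edgeR), higher in DBL than in TDonly (1.77 ± 0.34; adjusted p = 0.00322) and 12.9-fold lower in TDonly than in ColGFP (-3.69 ± 0.36; adjusted p = 2.95e-05). As a fold, this was the widest range of the 4 genes over the populations.

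Tbx5 measured 120.4, 108 and 109 CPM in ColGFP, 49.6, 52.5 and 56.4 CPM in DBL and 8.03, 18.9 and 19.8 CPM in TDonly. Again the populations did not overlap, and TDonly replicate 1 was below the other libraries of its population. Mean levels were 113 ± 6.79, 52.8 ± 3.38 and 15.6 ± 6.57 CPM. Tbx5 was higher in DBL than in TDonly (log2 fold change 1.76 ± 0.27; adjusted p = 0.00111 by edgeR) and 7.23-fold lower in TDonly than in ColGFP (-2.85 ± 0.28; adjusted p = 3.35e-05). The step from ColGFP to DBL (-1.09 ± 0.27; adjusted p = 0.0227) was the weakest call of the 4 genes. It was lost when any 1 of DBL replicates 1, 3 or 4 or ColGFP replicates 1, 2 or 3 was left out (adjusted p = 0.058 to 0.0742), with a log2 fold change between -1.13 and -1.02 in those fits.

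**Figure D1:**
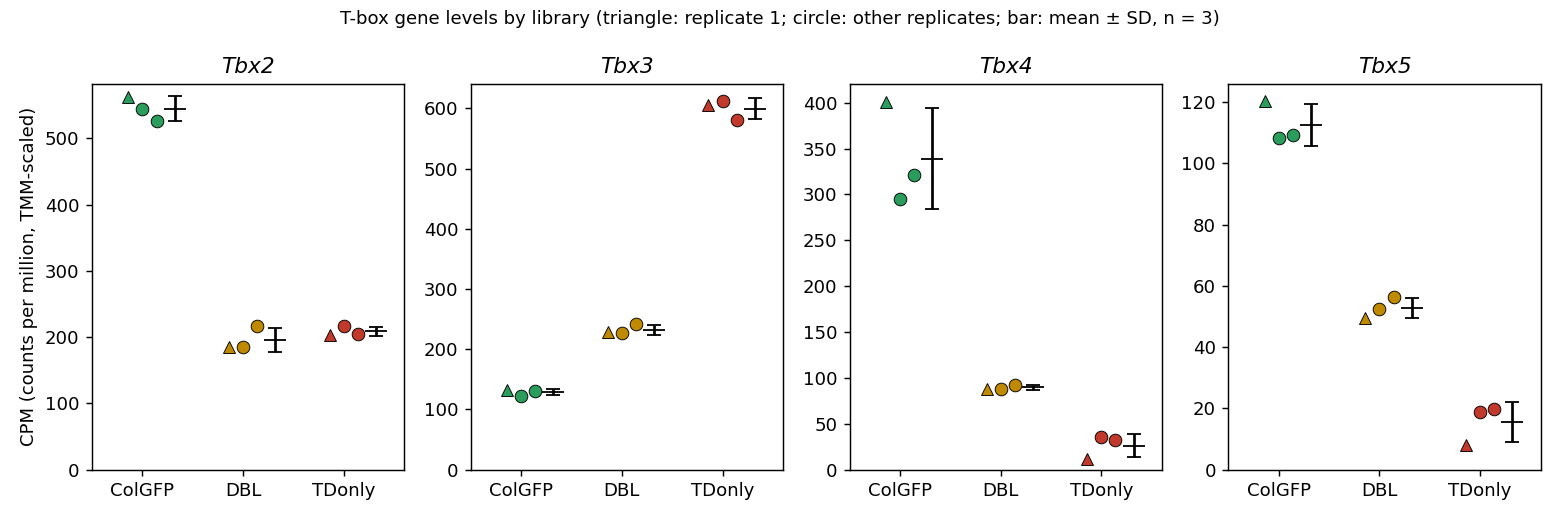
CPM of Tbx2, Tbx3, Tbx4 and Tbx5 (vertical axes, each from 0) in the 9 libraries by population, with triangles for replicate 1, circles for the other replicates and bars for mean ± SD (n = 3). The TDonly triangles of Tbx4 (11.7 CPM) and Tbx5 (8.03 CPM) lie below the other TDonly libraries, whereas Tbx2 and Tbx3 show no such gap.

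**Figure D2:**
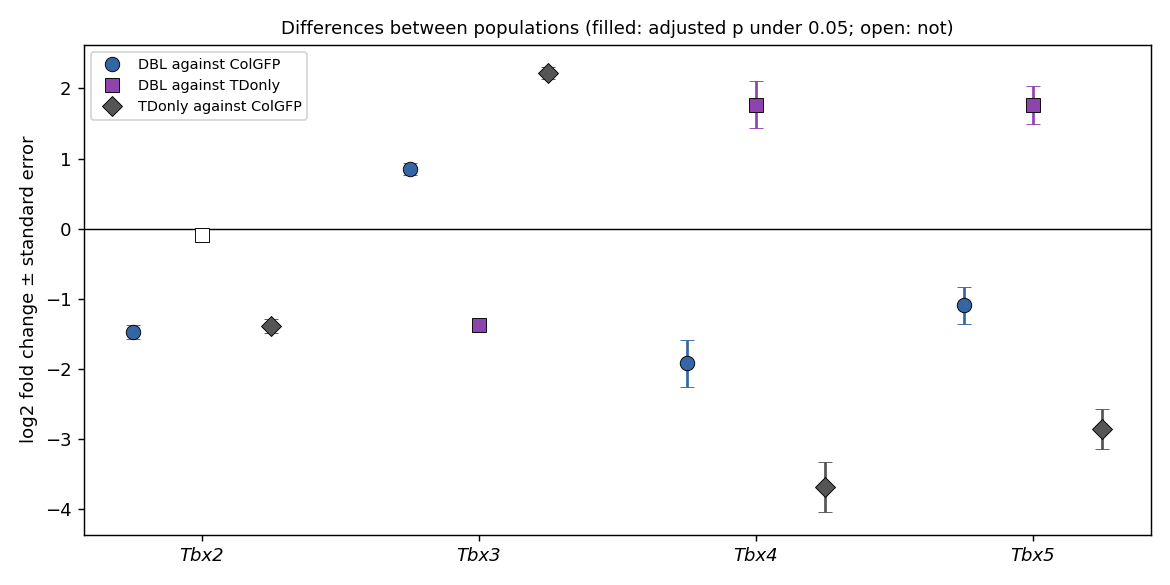
Log2 fold change ± standard error (vertical axis) of each of the 4 genes in the 3 comparisons, filled where the adjusted p was under 0.05. Tbx3 has the opposite sign to Tbx4 and Tbx5 in each comparison, and the 1 open symbol is Tbx2 in DBL against TDonly.

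Replicate 1 is the only library of the lower core number series in each population. Between DBL and TDonly the log2 fold change of Tbx4 was 2.92 in the lower series and 1.42 in the higher one, and that of Tbx5 was 2.63 and 1.49. Between TDonly and ColGFP it was -5.11 and -3.19 for Tbx4 and -3.91 and -2.49 for Tbx5. The direction was the same in both series, and for Tbx2 and Tbx3 the series differed by at most 0.19 in all 3 comparisons. A fit with a term for the series, added after these values were seen, takes its spread from the higher series alone and assumes that each lone library varies like those. Under that assumption it called 4.85% of genes in DBL against TDonly, 16.8% in TDonly against ColGFP and 13.1% in DBL against ColGFP, and it describes these libraries only, since library and series cannot be told apart.

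As a share of the ColGFP level, the TDonly levels of Tbx4, Tbx5 and the collagen genes were lower in the lower series. The TDonly level of Tbx4 was 2.90% of the ColGFP level in the lower series and 10.9% in the higher one, and that of Tbx5 was 6.67% and 17.8%. For Col1a1 the same shares were 7.55% and 16.3%, and for Col1a2 7.50% and 15.1%. The summed smooth muscle and myofibroblast markers gave 5.72% and 11.8%, and the alveolar fibroblast markers 13.3% and 20.3%. The summed adventitial fibroblast markers ran the other way, at 116% and 43.8%. Their ColGFP sum was 1778 CPM in replicate 1, against 4822 and 4682, and their TDonly sums were 1995 to 2170 CPM. These 10 markers did not run together. Over all 9 libraries edgeR called 6 lower and 2 higher in TDonly than in ColGFP, beside 24.0% and 21.6% of all genes. The 6 became 3 without ColGFP replicate 2 or 3. Within ColGFP, replicate 1 had the lowest Col1a1 (4939 CPM, against 9593 and 9181) but the highest Tbx4 and Tbx5. The part of these genes and markers in the Tbx4 and Tbx5 levels of TDonly was not tested.

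Divided by the length of the exons, the levels could be set side by side. The sum of the 4 genes was 293 ± 22.3 CPM per kilobase in ColGFP, 127 ± 7.72 in DBL and 159 ± 7.05 in TDonly. Tbx2 made up 51.3 ± 2.62% of this sum in ColGFP and Tbx4 33.8 ± 2.96%, with 8.21 ± 0.124% for Tbx5 and 6.64 ± 0.356% for Tbx3. In TDonly, Tbx3 made up 56.9 ± 2.54% and Tbx2 36.2 ± 0.515%, and the activators Tbx4 and Tbx5 4.81 ± 2.23% and 2.08 ± 0.837%. DBL had the most even makeup, with 42.6 ± 1.34% Tbx2, 27.7 ± 0.720% Tbx3, 20.8 ± 0.612% Tbx4 and 8.92 ± 0.242% Tbx5. Per coding length, Tbx3 (36.7 ± 0.778%) came before Tbx2 (32.3 ± 1.19%) in DBL, so the order of these genes there depends on the length used. The repressors Tbx2 and Tbx3 together gave 170 ± 5.36 CPM per kilobase in ColGFP, 89.1 ± 6.25 in DBL and 148 ± 4.01 in TDonly. Per coding length this sum was 313, 196 and 368, so whether ColGFP or TDonly was higher depends on the length used. The activators Tbx4 and Tbx5 together gave 124 ± 17.7, 37.6 ± 1.48 and 11.1 ± 5.15 CPM per kilobase. The activator sum thus differed far more between ColGFP and TDonly than the repressor sum, in which Tbx2 and Tbx3 ran in opposite directions.

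**Figure D3:**
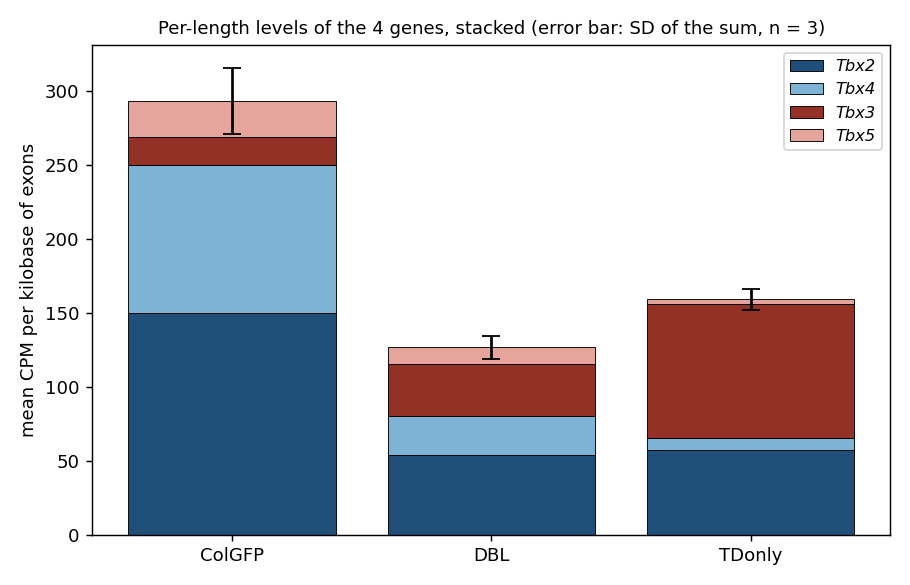
Mean CPM per kilobase of exons (vertical axis, from 0) of the 4 genes stacked by population, with the SD of the sum as error bar (n = 3). Tbx2 and Tbx4 fill most of the ColGFP bar, Tbx3 and Tbx2 most of the TDonly bar, and the DBL bar is the lowest at 127 CPM per kilobase.

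Linked neighbours did not keep a fixed ratio. The log2 ratio of Tbx4 to Tbx2 per length was -0.40, -0.79 and -0.62 in the ColGFP libraries, -0.98, -0.99 and -1.13 in DBL and -4.02, -2.53 and -2.58 in TDonly. No libraries of different populations overlapped, and the populations differed by an exact permutation F test over the 9 libraries (two-sided by construction, p = 0.00357, the smallest it can give; adjusted p = 0.00476 over 4 ratios). The log2 ratio of Tbx5 to Tbx3 was 0.36, 0.32 and 0.24 in ColGFP, -1.70, -1.61 and -1.59 in DBL and -5.72, -4.51 and -4.36 in TDonly (exact p = 0.00357, adjusted p = 0.00476). Per length, Tbx5 was therefore above its neighbour Tbx3 in ColGFP and below it in the other populations. The ratios of Tbx3 to Tbx2 and Tbx5 to Tbx4 were added after values had been seen, so their p-values are a description only. The ratio of the closest relatives Tbx3 and Tbx2 had small spreads within populations, at -0.62 ± 0.08 in DBL, -2.95 ± 0.07 in ColGFP and 0.65 ± 0.04 in TDonly (log2, SD, n = 3; exact p = 0.00357, adjusted p = 0.00476). The ratio of Tbx5 to Tbx4 varied least between populations, at -2.04 ± 0.15 in ColGFP, -1.22 ± 0.06 in DBL and -1.17 ± 0.18 in TDonly (log2, SD, n = 3; exact p = 0.025, adjusted p = 0.025). For this ratio the DBL and TDonly libraries overlapped and those of ColGFP stood below. Across the 9 libraries, which share the 3 populations, log2 CPM of Tbx4 and Tbx5 had r = 0.99, Tbx2 and Tbx4 r = 0.81, Tbx3 and Tbx5 r = -0.96 and Tbx2 and Tbx3 r = -0.75, given as a description.

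DBL cells carry both reporters, and each gene was placed on a scale from the TDonly mean (0%) to the ColGFP mean (100%) in CPM. DBL lay at -3.76% for Tbx2 (range of the 3 DBL libraries -6.94 to 2.53%), at 20.2% for Tbx4 (19.6 to 21.2%), at 38.4% for Tbx5 (35.1 to 42.0%) and at 78.1% for Tbx3 (76.1 to 79.2%). In CPM the ranges of the 4 genes did not overlap. DBL thus stood at or near TDonly in Tbx2 but nearer ColGFP in Tbx3. The gap between Tbx5 and Tbx3 depends on the scale. In log2 terms, Tbx5 stood 1.76 higher in DBL than in TDonly, out of 2.85 between TDonly and ColGFP. Tbx3 stood 1.37 lower in DBL than in TDonly, out of 2.22, which is a like position. The log2 fold change of Tbx4 was 1.77 in DBL against TDonly and -3.69 in TDonly against ColGFP, so its low place also depends on the CPM scale. Among the 1313 genes that were at least 2-fold higher in ColGFP than in TDonly, called, and at a mean of 10 CPM or more, the median position was 57.0% (quartiles 36.7 and 89.7%). On the CPM scale, 0.305% of those genes lay below Tbx2, 9.44% below Tbx4 and 27.6% below Tbx5. Among the 1028 genes higher in TDonly the median position was 67.9% (quartiles 60.3 and 72.6%), and 88.6% lay below Tbx3. The placement of Tbx2 was -5.01% within the lower core number series and -3.07% within the higher one.

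**Figure D4:**
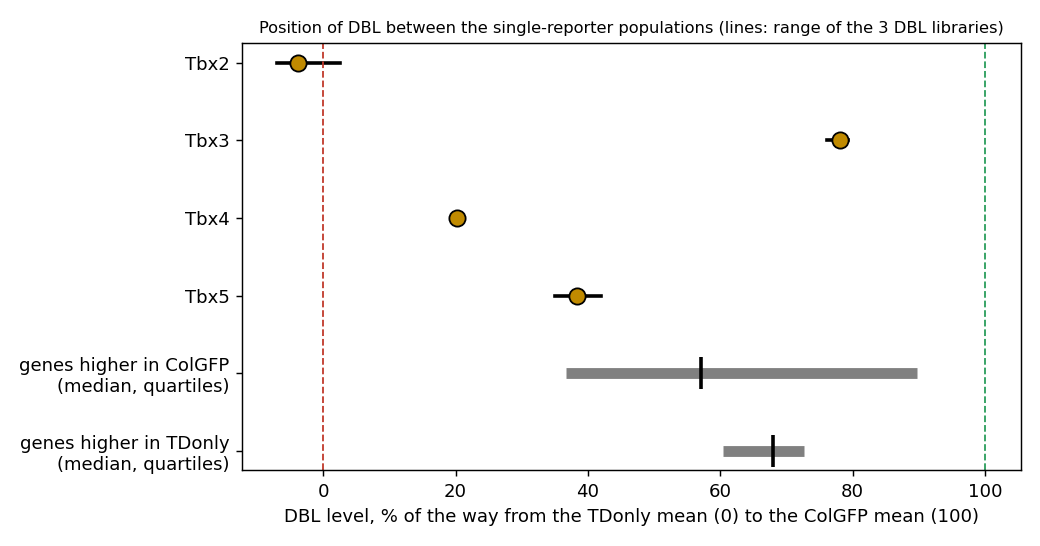
Position of the DBL level between the TDonly mean (0%, dashed) and the ColGFP mean (100%, dashed) on the horizontal axis, with points for the means of the 4 genes and lines for the range of the 3 DBL libraries; grey bars are quartiles over genes called at 2-fold or more. On this CPM scale Tbx2 sits at -3.76% and Tbx3 at 78.1%.

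The genes with the profile most like each member were ranked by Pearson's r of log2 CPM over the 9 libraries, among 9416 genes with a mean of 10 CPM or more in their highest population. Entries without a gene name, such as Gm and Rik symbols, were left out. For Tbx2 they were Sept4 (r = 0.995), Enpp2 (0.990), Cdh4 (0.988), Bcas3 (0.986) and Cacna1e (0.984). Enpp2, which encodes the secreted enzyme autotaxin, measured 623 ± 91.3 CPM in ColGFP, 72.1 ± 5.08 in DBL and 83.2 ± 12.8 in TDonly. Most like Tbx3 were Prkce, P2rx7, Ankrd50, Pxdn and Tgfb1, with r from 0.998 to 0.999. Pxdn, the basement membrane enzyme peroxidasin, measured 818 ± 41.2 CPM in TDonly, 417 ± 11.8 in DBL and 263 ± 11.0 in ColGFP. Most like Tbx4 were Slc7a10, Dennd4a, Gpc1, Foxf2 and Ptger2 (0.997 to 0.999); Foxf2, the closest paralog of Foxf1, measured 77.4 ± 3.04 CPM in ColGFP, 24.7 ± 0.301 in DBL and 8.47 ± 3.62 in TDonly. Those of Tbx5 were Myh10, Ednra, Ptprd, Gfra2 and Adcy2 (0.997 to 0.999); Myh10, a non-muscle myosin heavy chain, measured 886 ± 62.1 CPM in ColGFP, 425 ± 9.95 in DBL and 121 ± 49.1 in TDonly. Such profiles were common, and Tbx5 ranked only 64 among the 9416 genes in likeness to Tbx4. With the 6 libraries of the higher series, 1 of the 5 genes remained for each of Tbx2, Tbx3 and Tbx4 and 0 for Tbx5. Pearson's r takes no account of the size of the steps, and Dennd4a measured 205 CPM in ColGFP and 78.4 in TDonly. Ranked by root mean square difference, which does, 1 of the 5 remained for Tbx2, 0 for Tbx3, 1 for Tbx4 and 2 for Tbx5.

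Genes that flank the pairs were compared to see whether the profiles extend along the chromosome. Bcas3, a long gene on the same strand that ends 6493 bases before Tbx2, measured 83.4, 83.1 and 91.9 CPM in ColGFP, 44.0, 48.4 and 49.8 CPM in DBL and 47.2, 48.5 and 45.3 CPM in TDonly. As for Tbx2, all ColGFP libraries stood above the rest and DBL overlapped TDonly. Bcas3 was lower in DBL than in ColGFP (log2 fold change -0.86 ± 0.09; adjusted p = 0.000175 by edgeR) and in TDonly than in ColGFP (-0.87 ± 0.09; adjusted p = 3.07e-05), and DBL against TDonly did not pass (0.01 ± 0.09; adjusted p = 0.93). Both calls held in 21 of 21 alternatives. The other flanking genes of the Tbx2/Tbx4 pair did not pass in DBL against ColGFP, so 1 of 9 tested was called (2 with DESeq2 and 2 with limma-voom). Over all genes, 6.47% were lower in DBL than in ColGFP and 24.0% lower in TDonly than in ColGFP. In TDonly against ColGFP 5 of the 9 flanking genes were lower. They were Bcas3, its antisense transcripts Bcas3os1 (-1.57 ± 0.29) and Bcas3os2 (-1.66 ± 0.39), Ints2 (-0.50 ± 0.12) and Rnft1 (-1.08 ± 0.19). Both antisense transcripts lie within Bcas3, and without the strand their reads cannot be told apart from its own. Med13, Brip1, Ppm1d and Tubd1 were not called in any comparison with ColGFP.

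Around the Tbx3/Tbx5 pair, 0 of 7 flanking genes tested by edgeR passed in DBL against ColGFP (0 at an unadjusted p under 0.05, 0 with DESeq2 and 0 with limma-voom), and Rnft2 was the 1 of 7 that was lower in TDonly than in ColGFP (log2 fold change -1.91 ± 0.34). Rnft2 and Med13l were higher in DBL than in TDonly (1.67 ± 0.33 and 0.28 ± 0.09). The nearest gene of the table before Tbx3, the non-coding Gm16063, lies 36205 bases away and did not pass (0.54 ± 0.87 in DBL against ColGFP), and neither did Rbm19, 231246 bases after Tbx5 (0.01 ± 0.13). None of the flanking genes showed the rise of Tbx3 from ColGFP to TDonly as a call. Over all genes, 14.5% were called in DBL against ColGFP and 17.3% were higher in DBL than in TDonly. In TDonly against ColGFP 21.6% were higher and 24.0% lower. With 7 genes, counts near these shares cannot decide whether the profiles extend along the chromosome.

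**Figure D5:**
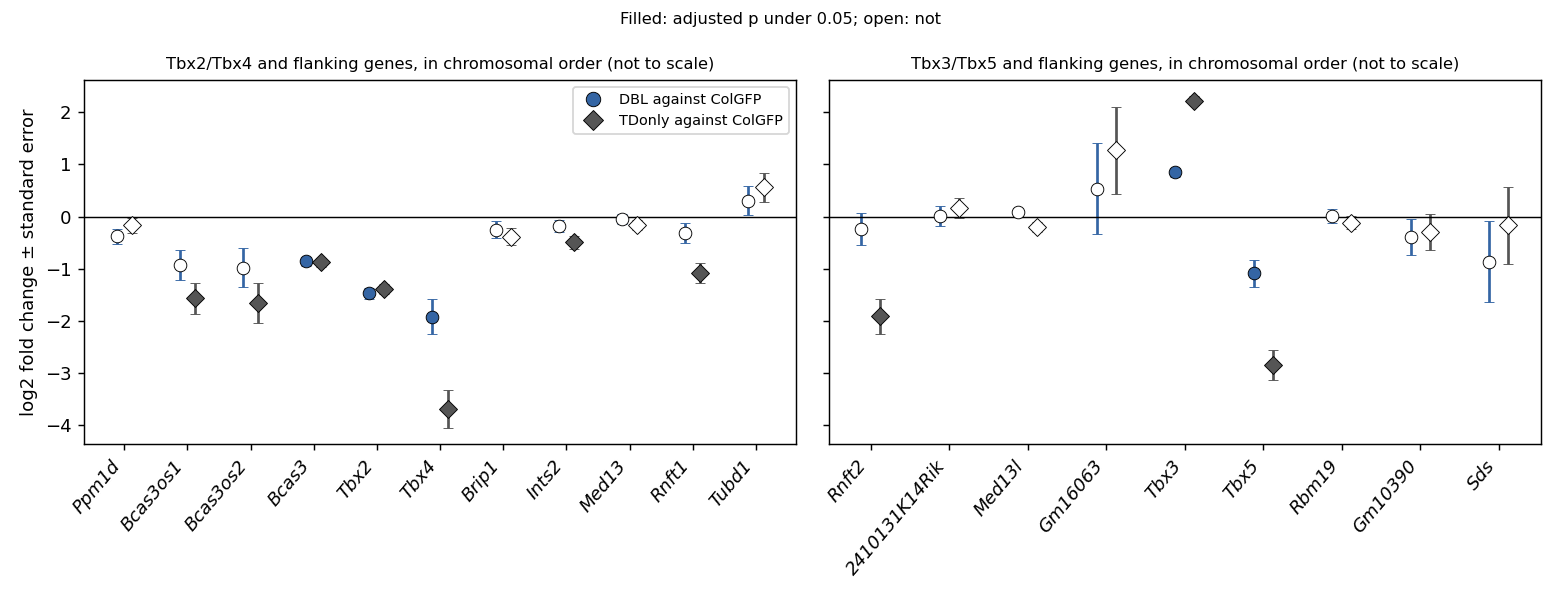
Log2 fold change ± standard error (vertical axis) of Tbx2 with Tbx4 (left) and Tbx3 with Tbx5 (right) and of the tested flanking genes in chromosomal order, not to scale, for DBL and TDonly against ColGFP; filled symbols have an adjusted p under 0.05. Bcas3 beside Tbx2 is filled in both comparisons, at -0.86 and -0.87.

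Other T-box genes were at far lower counts, apart from Mga. The table held 13, of which 9 were tested, and T, Tbx10, Tbx19 and Tbx22 were too low. Tbx18, a marker of vascular mural cells, was higher in DBL (9.20 ± 0.646 CPM) than in ColGFP (3.42 ± 0.970), with a log2 fold change of 1.43 ± 0.35 (adjusted p = 0.0222 by edgeR). It was the 1 gene called in that comparison, and leaving out any of DBL replicates 1, 3 and 4 and ColGFP replicates 1 and 3 made the count 0. Against TDonly, DBL was higher in 3 of 9, Tbx15 (3.20 ± 1.01), Tbx18 (2.68 ± 0.37) and Tbx20 (2.99 ± 0.64). Tbx15 was near the floor, with counts of 27, 6 and 17 in DBL (mean 0.66 CPM) and 0, 5 and 0 in TDonly (0.07 CPM). The Tbx15 call (adjusted p = 0.0396) was lost without any of DBL replicates 1 and 4 and TDonly replicates 1 and 3 (adjusted p = 0.0867 to 0.111), and limma-voom called 2 of the 9. In TDonly against ColGFP, where 21.6% of all genes were higher and 24.0% lower, 1 of the 9 was higher and 2 were lower. Tbx1 was higher (0.90 ± 0.27), and Tbx18 (-1.25 ± 0.37) and Tbx20 (-3.26 ± 0.65) were lower. Tbx1 was lost without replicate 2 or 3 of ColGFP or TDonly, and Tbx18 without ColGFP replicate 2. Mga, which encodes a T-box protein that pairs with Max, was not called in any of the 3 comparisons (-0.10 ± 0.09 in DBL against ColGFP; adjusted p = 0.561). The median over the 9 was -0.02 in DBL against ColGFP, -0.14 in DBL against TDonly and -0.06 in TDonly against ColGFP, beside -0.00, -0.04 and 0.02 over all genes.

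In the edgeR fit of all 9 libraries, the called members among genes reported as activated by Tbx4 or Tbx5 had their direction in each comparison. Whether Tbx4 or Tbx5 regulates them in these cells was not tested. Of 7 tested, 4 were lower in DBL than in ColGFP and 0 higher by edgeR; at an unadjusted p under 0.05, and with DESeq2 or limma-voom, 1 was higher. These were Gja5 (log2 fold change -1.45 ± 0.14; adjusted p = 0.00014 by edgeR), a gap junction protein, Bmp4 (-0.68 ± 0.12; adjusted p = 0.00386), Wnt2 (-1.73 ± 0.42; adjusted p = 0.0235) and Fgf10 (-1.66 ± 0.42; adjusted p = 0.0272), the growth factor of lung budding. Leaving out any of DBL replicates 1, 3 and 4 and ColGFP replicates 2 and 3 left 2 calls, Gja5 and Bmp4, and ended those of Wnt2 and Fgf10. Without TDonly replicate 1 or ColGFP replicate 1, edgeR called 1 of the 7 higher in DBL than in ColGFP. Within the higher core number series it called 2 higher and 4 lower. Against TDonly, 5 of 7 were higher in DBL, with Osr1, a transcription factor of foregut mesenchyme, at 3.67 ± 0.45, Wnt2b at 2.17 ± 0.39 and Fgf10 at 2.22 ± 0.44, and 3 of 7 remained called without DBL replicate 1 or TDonly replicate 2. In TDonly against ColGFP 5 of 7 were lower, and Fgf10 (-3.88 ± 0.47) had the largest of these steps among the 4 with the smallest adjusted p. The list medians were -0.68, 1.29 and -1.72 in DBL against ColGFP, DBL against TDonly and TDonly against ColGFP. Of all genes, 6.47% were lower in DBL than in ColGFP and 17.3% higher than in TDonly. In TDonly, 24.0% were lower than in ColGFP. The directions were not particular to this list. Of 14 other mesenchymal transcription factors, 10 were higher in DBL than in TDonly and 12 lower in TDonly than in ColGFP.

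Genes reported as repressed by Tbx2 or Tbx3 had no common direction between DBL and ColGFP. Of 10 tested, Il33, an alarmin cytokine (log2 fold change 1.57 ± 0.17; adjusted p = 0.000304 by edgeR), and Shisa3, a Wnt antagonist (2.13 ± 0.48; adjusted p = 0.0159), were higher in DBL, and Gja1, the gap junction protein connexin 43, was lower (-0.81 ± 0.12; adjusted p = 0.00199). Against TDonly, 5 of 10 were higher in DBL and 0 lower by edgeR (1 lower at an unadjusted p under 0.05 and with DESeq2, 0 with limma-voom), including Wisp1, a matricellular Wnt target (2.19 ± 0.15), and this count was 3 without TDonly replicate 2. In TDonly against ColGFP, Cdh1 was higher (1.12 ± 0.33) and Wisp1 (-2.18 ± 0.15) and Gja1 (-1.21 ± 0.12) were lower. The Cdh1 call was lost without ColGFP replicate 2 or TDonly replicate 2 or 3. The list medians were 0.14, 0.49 and -0.03. Among all genes, 8.04% were higher and 6.47% lower in DBL against ColGFP, and 17.3% and 12.6% in DBL against TDonly. In TDonly against ColGFP the shares were 21.6% and 24.0%. Of the cell cycle inhibitors of the list, Cdkn1a and Cdkn1b were not called in any comparison, and Cdkn2a was not tested.

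T-box factors work with other transcription factors and with chromatin enzymes. Of 14 such cofactors tested, 2 were higher and 1 lower in DBL than in ColGFP. Gata5, a zinc finger factor that works with Tbx5 in the heart, measured 70.1 ± 1.39 CPM in ColGFP, 19.5 ± 0.868 in DBL and 4.68 ± 2.16 in TDonly (log2 fold change -1.85 ± 0.28 in DBL against ColGFP, adjusted p = 0.00192; 2.06 ± 0.29 against TDonly, adjusted p = 0.000688, by edgeR). It thus had the order of Tbx4 and Tbx5. The acetyltransferase gene Kat2b (0.54 ± 0.09) and the retinoblastoma gene Rb1 (0.63 ± 0.18) were higher in DBL than in ColGFP. Rb1 lost this call without any 1 of 6 libraries (DBL replicates 1 and 3, ColGFP replicates 1, 2 and 3 and TDonly replicate 2). Against TDonly 4 of 14 were higher and 2 lower, and in TDonly against ColGFP 3 were higher and 3 lower. The 2 lower than in TDonly became 0 without DBL replicate 4 and 1 without any of TDonly replicates 1 and 2 and ColGFP replicates 1, 2 and 3. Over all genes, 8.04% were higher and 6.47% lower in DBL against ColGFP, and 17.3% and 12.6% in DBL against TDonly. In TDonly against ColGFP the shares were 21.6% and 24.0%. Most counts of the 14 cofactors lay near these shares, so they are no result on cofactors as a group.

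Other transcription factors of the lung mesenchyme were counted in the same way. Of 14 tested, 1 was higher and 4 lower in DBL than in ColGFP, 10 higher and 1 lower in DBL than in TDonly, and 1 higher and 12 lower in TDonly than in ColGFP. The 1 exception in each was Foxf1, a gene the sort used (log2 fold change 0.76 ± 0.13, -1.28 ± 0.13 and 2.05 ± 0.13). Foxf2 (-1.65 ± 0.26), Hoxa5 (-1.11 ± 0.16) and Hoxb5 were among the 4 lower in DBL than in ColGFP, and only Foxf2 and Hoxa5, 2 of the 4, remained called without any of DBL replicates 1 and 4 and ColGFP replicates 2 and 3. The medians of this list were -0.28, 2.52 and -2.92. All genes gave 8.04% higher and 6.47% lower in DBL against ColGFP, and 17.3% and 12.6% in DBL against TDonly. In TDonly against ColGFP they gave 21.6% and 24.0%.

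Signalling pathways that act on or through these T-box genes came next. For their counts, the shares over all genes were 8.04% higher and 6.47% lower in DBL against ColGFP. They were 17.3% and 12.6% in DBL against TDonly, and 21.6% and 24.0% in TDonly against ColGFP. In the hedgehog pathway, 10 of 13 genes tested were higher in DBL than in TDonly and 10 of 13 were lower in TDonly than in ColGFP, among them the receptor Ptch1, the transducer Smo (1.64 ± 0.16 and -1.62 ± 0.16 on the log2 scale by edgeR) and the effector Gli3 (2.12 ± 0.13 and -2.34 ± 0.13). The ligand Dhh went the other way in both, as did the ligand Shh in TDonly against ColGFP. Between DBL and ColGFP the ligand Dhh was higher (0.95 ± 0.20; adjusted p = 0.0122) and the ligand-binding antagonist Hhip lower (-4.03 ± 0.47; adjusted p = 0.000468), and without TDonly replicate 1 these counts were 2 and 3. Among 11 BMP ligands, receptors and SMADs, the receptor Bmpr2 had the order of Tbx3 (1.12 ± 0.10 in DBL against ColGFP and 2.35 ± 0.10 in TDonly against ColGFP), and the ligands Bmp4 and Bmp5 had that of Tbx4 and Tbx5 (Bmp5 -2.51 ± 0.32 and -3.98 ± 0.35). The step of Bmp4 between DBL and TDonly (0.42 ± 0.12; adjusted p = 0.0207) was lost without DBL replicate 1 or TDonly replicate 2 or 3 (adjusted p = 0.0577 to 0.083). In all, 1 was higher and 2 lower in DBL than in ColGFP, 4 higher and 1 lower in DBL than in TDonly, and 1 higher and 5 lower in TDonly than in ColGFP. Without TDonly replicate 1, the counts in DBL against ColGFP were 2 and 4. Of 7 genes of retinoic acid synthesis, breakdown and reception, 3 were higher and 1 lower in DBL than in ColGFP; the degrading enzyme Cyp26b1 (1.45 ± 0.21; adjusted p = 0.00139) was called with each single library left out, and the synthesising enzymes Aldh1a2, Aldh1a3 and Aldh1a1 were lost without any 1 of 5 or 6 libraries.

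Markers of the cell types that the sorts could hold are given here. The sums of some lists had the order of a T-box gene and those of others did not, and their part in the T-box results was not tested. Over all genes tested, 8.04% were higher and 6.47% lower in DBL than in ColGFP. Against TDonly, DBL had 17.3% higher and 12.6% lower, and 21.6% were higher and 24.0% lower in TDonly than in ColGFP. Of 10 alveolar fibroblast markers, 9 were lower in DBL than in ColGFP, 8 higher in DBL than in TDonly and 9 lower in TDonly than in ColGFP, and their sums were 17816 to 19151 CPM in ColGFP, 5201 to 6413 in DBL and 2374 to 3773 in TDonly. Of 10 smooth muscle and myofibroblast markers, 6 were lower in DBL than in ColGFP, 9 higher in DBL than in TDonly and 10 lower in TDonly than in ColGFP, with sums of 3779 to 6371, 1147 to 1380 and 365 to 477 CPM. Much of the smooth muscle sum in ColGFP was Hhip, at 2275 CPM of a mean sum of 4818. Hhip measured 139 CPM in DBL and 22.6 in TDonly. Acta2, Tagln, Myh11 and Cnn1 were not called in DBL against ColGFP, where 9 of the 10 were lower within the higher core number series. The alveolar and the smooth muscle sums thus had the order of Tbx4 and Tbx5. Endothelium markers had that of Tbx3, with 16 of 17 higher in DBL than in ColGFP, 17 lower in DBL than in TDonly and 17 higher in TDonly than in ColGFP. Of 8 alveolar calls in DBL against TDonly, 5 remained without DBL replicate 3. Adventitial fibroblast markers summed highest in DBL (7106 to 8956 CPM, against 1778 to 4822 in ColGFP and 1995 to 2170 in TDonly), with 5 of 10 called higher than in ColGFP (3 without DBL replicate 4) and 7 higher and 1 lower than in TDonly (2 lower without DBL replicate 1 and 0 without DBL replicate 4). Mesothelium markers also summed highest in DBL (689 to 795 CPM, against 239 to 307 and 104 to 353), with 6 of 8 called higher than in ColGFP (3 without ColGFP replicate 3) and 7 higher than in TDonly. Epithelium markers summed to 4331 to 12770 CPM in ColGFP, 7854 to 8616 in DBL and 12346 to 15859 in TDonly, and leukocyte markers to 922 to 2390, 1287 to 1487 and 1984 to 2829 CPM, with ColGFP replicate 1 the highest ColGFP library in both. The epithelium means had the order of Tbx3 (14456 CPM in TDonly, 8323 in DBL and 7833 in ColGFP), but DBL and ColGFP libraries overlapped. Without replicate 1 no populations overlapped, at 15163 to 15859, 8497 to 8616 and 4331 to 6398 CPM. Leukocyte sums then had that order too (2595 to 2829, 1464 to 1487 and 922 to 1211 CPM). Within the higher series edgeR called 14 of 14 epithelium markers in this order in each comparison, beside 4512, 6724 and 8834 of all genes. By edgeR, 0 of 14 epithelium markers were called in DBL against ColGFP (0 with DESeq2 and limma-voom, 4 higher at an unadjusted p under 0.05), but 8 were called higher without ColGFP replicate 1. Against TDonly, 2 were lower in DBL (10 without ColGFP replicate 1, 6 without ColGFP replicate 3, 1 without ColGFP replicate 2 and 0 without any of DBL replicates 1, 3 and 4 and TDonly replicates 2 and 3), and 8 were higher in TDonly than in ColGFP (14 without ColGFP replicate 1, and 4 or 5 without replicate 2 or 3 of ColGFP or TDonly). Of 12 leukocyte markers, 2 were lower in DBL than in TDonly (6 without TDonly replicate 1, 1 without ColGFP replicate 2 or 3, and 0 without any of DBL replicates 1 and 3 and TDonly replicates 2 and 3) and 1 was higher in TDonly than in ColGFP (4 without TDonly replicate 1, 2 without replicate 1 of DBL or ColGFP, and 0 without replicate 2 or 3 of ColGFP or TDonly); 0 were called in DBL against ColGFP by edgeR, DESeq2, limma-voom or an unadjusted p under 0.05. Pericyte markers summed to 873 to 1197 CPM in ColGFP, 940 to 1248 in DBL and 187 to 342 in TDonly, with 1 higher and 1 lower of 10 in DBL against ColGFP, 5 higher in DBL against TDonly and 3 higher and 6 lower in TDonly against ColGFP. The counts in DBL against ColGFP were 0 or 2 in most fits without a single library, such as 0 higher and 0 lower without DBL replicate 1 and 2 higher and 2 lower without TDonly replicate 1. No marker of any of these lists was at 0 in all libraries.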

How the data were processed

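RNA-seq was performed on 9 libraries of sorted mouse lung cells, 3 per population, grouped and numbered by their titles. Ribosomal RNA was depleted, per the labels' design text, and the labels' protocols describe flash-frozen lungs and a TruSeq kit. The submitters' processing notes name cutadapt, TopHat, HTSeq and mm10, with no versions; the annotation and strand setting were not stated. The authors deposited raw counts per gene symbol. Columns were matched through the sequencing core number, and 3 columns of no sample were not used.

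Genes kept by filterByExpr (minimum count 10) were fitted in 1 edgeR 4.0.16 quasi-likelihood model over all 9 libraries with TMM factors (R 4.3.3, limma 3.58.1). Tests were two-sided with Benjamini-Hochberg adjustment over 15550 genes and a threshold of 0.05; residual and prior degrees of freedom were 6 and 3.42. A standard error is the log2 fold change divided by the square root of the F statistic. Within-library ratios used log2 CPM with a prior count of 2. Coding sequences were aligned with MAFFT 7.526. The script was tested on simulated data.

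The 16 gene lists held 189 entries, of which 186 matched the table. Named were the 4 members, from each list at most 4 genes by smallest adjusted p, the 5 nearest genes of the table on either side of each pair, and the 5 named genes most like each member. Hoxb5, Ptch1, Cdkn1a, Cdkn1b, Cdkn2a, Aldh1a1 and list members printed in a comparison where they were not among those 4 were named after their values were seen. Some genes and sequences that met these rules are not reported here. Members and lists were chosen with earlier results of these data known. The ratios of Tbx3 to Tbx2 and Tbx5 to Tbx4, the makeup of the 4-gene sum, the DBL position and the test between core number series were added after values had been seen. Alternatives were other scalings, filters, tools (DESeq2 1.42.0, limma-voom), samples, lengths and covariates, and leaving out each library.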

Additional observations from a re-analysis of the deposited data

Results flagged for a closer look

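A fit with a term for the core number series set Tbx4 and Tbx5 apart between the lower series (replicate 1 of each population) and the higher one (the other 6 libraries) in both comparisons with TDonly. As log2 fold change in the lower series minus that in the higher one, the values were 1.50 for Tbx4 and 1.14 for Tbx5 in DBL against TDonly. In TDonly against ColGFP they were -1.91 for Tbx4 and -1.42 for Tbx5. The fit sets 1 library per population against 2 and assumes that the lone library varies like the others, so these 4 values describe replicate 1 and are no result on the series.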

How the results depend on the processing

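Under 21 alternatives, 11 of the 12 tests of the 4 genes kept their direction and their side of the threshold. The exception was Tbx5 in DBL against ColGFP. With the replicate number as a block its log2 fold change was -1.09 (adjusted p = 0.0899), and with each library left out it was -1.13 to -1.02, with adjusted p from 3.85e-05 to 0.0742; within the higher core number series it was -0.98 (adjusted p = 5.34e-08). Same-numbered libraries were not shown to be pairs: correlations of deviations between them were 0.0156 to 0.527. DBL replicate 3 correlated better with TDonly replicate 2 (0.306) than with TDonly replicate 3 (0.232). DBL replicate 4, which has no same-numbered library, correlated better with TDonly replicate 3 (0.340) than with TDonly replicate 2 (0.289). The core numbers run in the order DBL 3, ColGFP 2, TDonly 2, DBL 4, ColGFP 3, TDonly 3. A pairing in that order was not tested. The block by replicate number changed no other call of the 4 genes. Within the higher series alone, the DBL mean log2 ratios of Tbx4 to Tbx2 and Tbx5 to Tbx3 were -1.06 and -1.60, and the exact permutation p was 0.0667 for both, the smallest that 6 libraries allow. Genes called in DBL against ColGFP numbered 2256, against 4512 within the higher series, 1478 without ColGFP replicate 2 and 1468 without ColGFP replicate 3. Library totals moved the median log2 fold change of all genes in TDonly against ColGFP from 0.02 to 0.16, and the share of called genes that were higher from 47.4 to 59.3%. Of the other T-box genes, 4 were not tested, with no more than 6 counts in any library.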
